A study of Mus musculus with 2 samples.

Results

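Fibroblasts that express Pi16 and Mfap5 and carry little of a chemokine response were described in single-cell libraries from tissue labelled olfactory epithelium of mice. They were chosen by a rule on detected genes: at least 3 of the 5 fibroblast genes Col1a1, Col1a2, Dcn, Pdgfra and Lum, no UMI of the cartilage genes Acan and Cnmd, at least 2 of the 4 markers Pi16, Mfap5, Clec3b and Cd248, and at most 2 of the 6 chemokine response genes Cxcl1, Ccl2, Ccl7, Ptx3, Tnfaip6 and Il6. A UMI is a molecular tag that marks 1 captured RNA molecule. Of 23816 cells, 4266 met the rule and are called chemokine-low Pi16 fibroblasts here. They numbered 2054 of 14136 cells in mouse 1, or 14.5% (95% exact binomial interval 14.0% to 15.1%), and 2212 of 9680 cells in mouse 2, or 22.9% (22.0% to 23.7%). The intervals cover counting error only. Both animals were male wildtype C57BL/6J mice with 1 library each, and no treatment is named. No age was stated in the labels used here. The tissue was cut up, digested with enzymes and captured in droplets, per the labels' protocols.

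Fibroblasts build and repair the extracellular matrix of connective tissue. Fibroblasts with Pi16 are known from many mouse organs, where they sit around larger vessels and in fascia. Fibroblasts can also be induced to make chemokines, by cytokines, injury or the handling of tissue. Pi16 encodes a peptidase inhibitor, Mfap5 a protein of the microfibrils that carry elastin, Clec3b the plasminogen-binding lectin tetranectin, and Cd248 the membrane glycoprotein endosialin.

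The chemokine-low Pi16 fibroblasts were set against 2 groups of cells from the same libraries. Chemokine-high Pi16 fibroblasts met the same rule but had 3 or more of the 6 chemokine response genes; there were 1476 in mouse 1 and 1035 in mouse 2. Marker-poor fibroblasts had at most 2 of the chemokine response genes and 0 or 1 of the 4 markers; there were 980 in mouse 1 and 680 in mouse 2. The remaining fibroblasts without Acan or Cnmd, marker-poor with 3 or more chemokine response genes, numbered 439 and 180. Chemokine-low Pi16 fibroblasts were 41.5% and 53.9% of all fibroblasts without Acan or Cnmd.

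The median depth per cell was 2913 UMIs in mouse 1 and 3725.5 UMIs in mouse 2 in chemokine-low Pi16 fibroblasts, 2887.5 and 3581 in chemokine-high Pi16 fibroblasts, and 2187.5 and 3016 in marker-poor fibroblasts. Counts were summed over the cells of a group in each mouse and are given as CPM, the count scaled to 1e6 UMIs in that sum, mouse 1 first. The sums held 7243283 and 9496018 UMIs in chemokine-low Pi16 fibroblasts, and 3 UMIs, the lowest count read as a level, correspond to 0.414 and 0.316 CPM. Between the libraries, 483 barcodes were called as cells in both, among them 59 and 82 of the chemokine-low Pi16 fibroblasts. Free RNA was measured in barcodes of at most 50 UMIs. The 5 markers of mature olfactory neurons (Omp, Carns1, Stoml3, Umodl1 and Rtp1) summed to 2.90 and 4.74 CPM in chemokine-low Pi16 fibroblasts, with 2 of the 5 at 0 UMIs in each mouse, and to 4.77 and 10.2 CPM in cells with under 3 fibroblast genes, against 4.21 and 4.51 CPM in free RNA. The 5 markers of sustentacular cells, the supporting cells of that epithelium, summed to 3.45 and 3.90 CPM in chemokine-low Pi16 fibroblasts and to 42.2 and 29.4 CPM in cells with under 3 fibroblast genes, nearly all of it Cyp2a5 in the last (41.0 and 27.9 CPM), against 7.63 and 12.4 CPM in free RNA.

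The genes of the rule describe the choice and were not tested between the groups. Pi16 stood at 1431 and 1262 CPM in chemokine-low Pi16 fibroblasts, 1406 and 1284 CPM in chemokine-high Pi16 fibroblasts and 42.8 and 39.0 CPM in marker-poor fibroblasts. Mfap5 stood at 828 and 1112 CPM in chemokine-low, 580.2 and 914 CPM in chemokine-high and 62.3 and 93.2 CPM in marker-poor cells. Clec3b stood at 2452 and 2046 CPM in chemokine-low, 1735 and 1856 CPM in chemokine-high and 432 and 272 CPM in marker-poor cells. The marker-poor cells lay far below both groups of Pi16 fibroblasts in these markers, least so for Clec3b. Cd248 stood at 477 and 527 CPM in chemokine-low, 412 and 586 CPM in chemokine-high and 27.5 and 24.2 CPM in marker-poor cells. All 4 markers were also present in free RNA, Pi16 at 465 and 472 CPM, so single UMIs of them can come from outside a cell. After each cell was thinned to 1000 UMIs, Pi16 was detected in 48.3 and 43.3% of chemokine-low Pi16 fibroblasts, against 5.57 and 0.704% of vessel and immune cells, which should lack it (377 and 284 cells with median depths of 3466 and 3929.5 UMIs). Before thinning it was detected in 63.3 and 61.9% of the fibroblasts and 16.2 and 7.39% of the vessel and immune cells. The vessel and immune cells were taken from cells with too few fibroblast genes for the rule. Those with much free fibroblast RNA were thus left out, so their share can understate the background of Pi16 from free RNA.

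**Figure D1:**
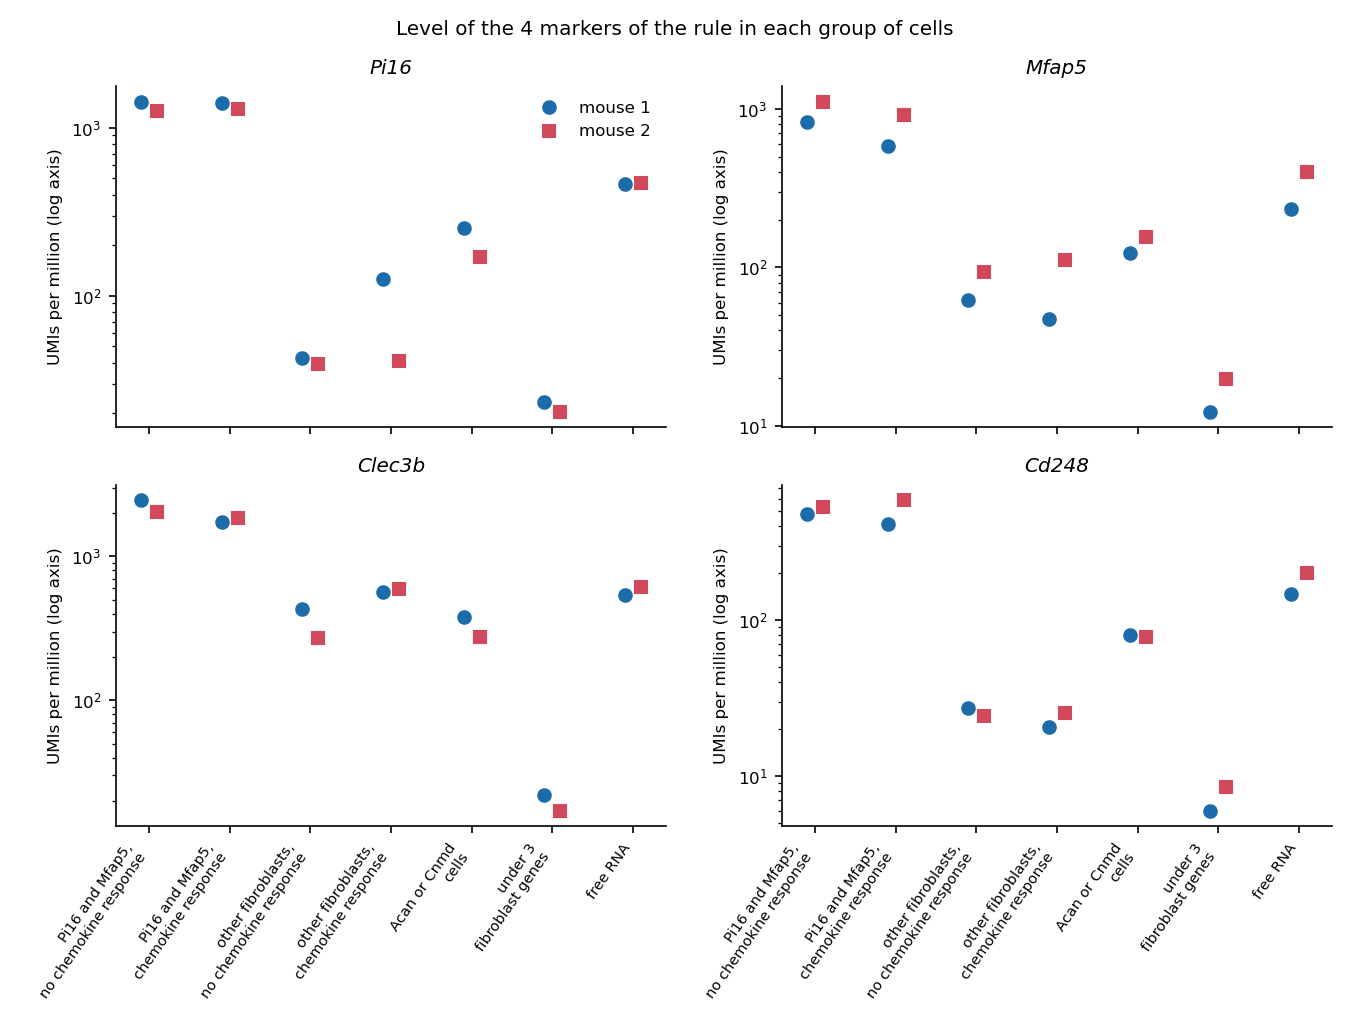
Level of Pi16, Mfap5, Clec3b and Cd248 (CPM of the summed UMIs, log axis) in each group of cells and in free RNA, with 1 point per mouse. Both groups of Pi16 fibroblasts stand above every other group for all 4 markers, since the rule chose them by these genes; the largest level is Clec3b in chemokine-low Pi16 fibroblasts, at 2452 and 2046 CPM.

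All 4 markers were detected together in 624 chemokine-low Pi16 fibroblasts of mouse 1 (30.4%) and 874 of mouse 2 (39.5%). Clec3b was detected in 95.3 and 95.7% of the cells and Mfap5 in 76.3 and 84.9%. Pi16 itself was detected in 63.3 and 61.9%, and Cd248 in 62.5 and 72.3%. A cell could thus enter with no UMI of Pi16, most often with Mfap5, Clec3b and Cd248 (306 and 422 cells) or with Mfap5 and Clec3b (276 and 270 cells). At the edge of the rule, 679 and 547 cells had exactly 2 markers and were inside, and 539 and 385 cells with 1 marker were outside. On the chemokine side, 564 and 488 cells had 2 chemokine response genes and were inside, and 432 and 369 cells with 3 such genes were outside. No chemokine response gene was detected in 646 and 834 of the chemokine-low Pi16 fibroblasts. Tnfaip6, which encodes a hyaluronan-binding protein induced in inflammation, stood at 513 and 428 CPM in them, against 3486 and 2854 CPM in chemokine-high Pi16 fibroblasts. Il6 stood at 25.4 and 19.3 CPM, against 761 and 432 CPM.

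Each marker was then left out of the rule in turn, and its level was tested in cells that had 2 or more of the remaining 3 markers against cells with 0 or 1 of them, always without the chemokine response. Pi16 stood at 1456 and 1279 CPM in cells chosen on the other markers, against 237 and 150.3 CPM in the rest, a log2 fold change of 3.00 ± 0.20 (SE; adjusted p = 3.23e-05, edgeR's quasi-likelihood test with Benjamini-Hochberg adjustment, n = 2 mice). Mfap5 (851 and 1159 CPM, against 232 and 313 CPM) was higher by 2.01 ± 0.12 and Clec3b (2614 and 2140 CPM, against 970 and 796 CPM) by 1.51 ± 0.09. Cd248 (476 and 526 CPM, against 109.7 and 123 CPM) was higher by 2.23 ± 0.13. Each of the 4 markers was higher in both mice in cells that the remaining 3 had chosen. The rule with these 4 markers was set with earlier results of these data known. The held-out values therefore describe how the markers go together here and are no independent support for a separate group. With every cell thinned to 1000 UMIs before the choice, the log2 fold changes were smaller, at 1.65 for Pi16, 1.26 for Mfap5, 0.85 for Clec3b and 1.35 for Cd248.

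Genes outside the rule were compared between chemokine-low Pi16 fibroblasts and marker-poor fibroblasts, to show what goes with the 4 markers. Of 16356 genes tested, with an adjusted p of 0.05 as the threshold, 914 were higher (5.59%) and 1434 were lower (8.77%) in chemokine-low Pi16 fibroblasts, all 2348 in the same direction in both mice. The median log2 fold change of all genes tested was 0.02. With cells thinned to 1000 UMIs 442 were higher and 715 lower, and without the mouse as a block 300 and 534. The cells were grouped by counts of the same libraries, so these tests say how groups cut in this way differ. They are not independent support for a separate cell type. With the mouse as a block, they measure how evenly the differences between groups held in 2 animals. Fold changes are on the scale set by TMM normalization, which lies 0.13 above the log2 ratio of the CPM values in this comparison.

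The 10 genes with the largest rise, among those at 50 CPM or more in 1 of the groups, were led by Efemp1. Efemp1, which encodes the elastic fibre protein fibulin-3, had 347 and 249 CPM in chemokine-low Pi16 fibroblasts, against 60.5 and 47.7 CPM in marker-poor fibroblasts, and was higher by 2.58 ± 0.15 on the log2 scale (adjusted p = 3.69e-07). Ackr1, an atypical receptor that binds chemokines without signalling through G proteins, had 115 and 101 CPM, against 18.1 and 22.3 CPM, and was higher by 2.56 ± 0.19. Tek, the angiopoietin receptor best known from endothelium, had 66.5 and 83.6 CPM, against 16.7 and 12.1 CPM, and was higher by 2.49 ± 0.26. In these genes both mice lay well apart from marker-poor fibroblasts, with no overlap. Overlap is described here and below for named genes only, and its share over all genes was not counted. Genes named because their change passed the test are likely to show none, so its absence adds no support. For all 10 genes free RNA lay above marker-poor fibroblasts and below chemokine-low Pi16 fibroblasts, as with Efemp1 (109 and 100 CPM) and Ackr1 (50.3 and 56.6 CPM). The part of free RNA was not tested. The summed endothelial markers (Pecam1, Cdh5, Kdr, Emcn and Flt1) went the other way, at 70.4 and 60.7 CPM in chemokine-low Pi16 fibroblasts, against 206 and 169 CPM in marker-poor fibroblasts. The adhesion gene Cadm3 (246 and 188 CPM, against 43.8 and 39.4 CPM), Pcolce2, an enhancer of procollagen processing (874 and 767 CPM, against 194 and 132 CPM), and Scg3, a granin of secretory granules (116 and 71.4 CPM, against 29.2 and 11 CPM), also rose. The others were Sfrp4, a secreted Wnt antagonist (2.36 ± 0.27), Ly6c1 (2.32 ± 0.13), Ace, the angiotensin-converting enzyme (2.20 ± 0.15), and Scara5, a ferritin receptor (2.20 ± 0.14). Without cells that had 2 or more markers of another cell class, these 10 genes remained higher, by 1.85 to 2.72.

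**Figure D2:**
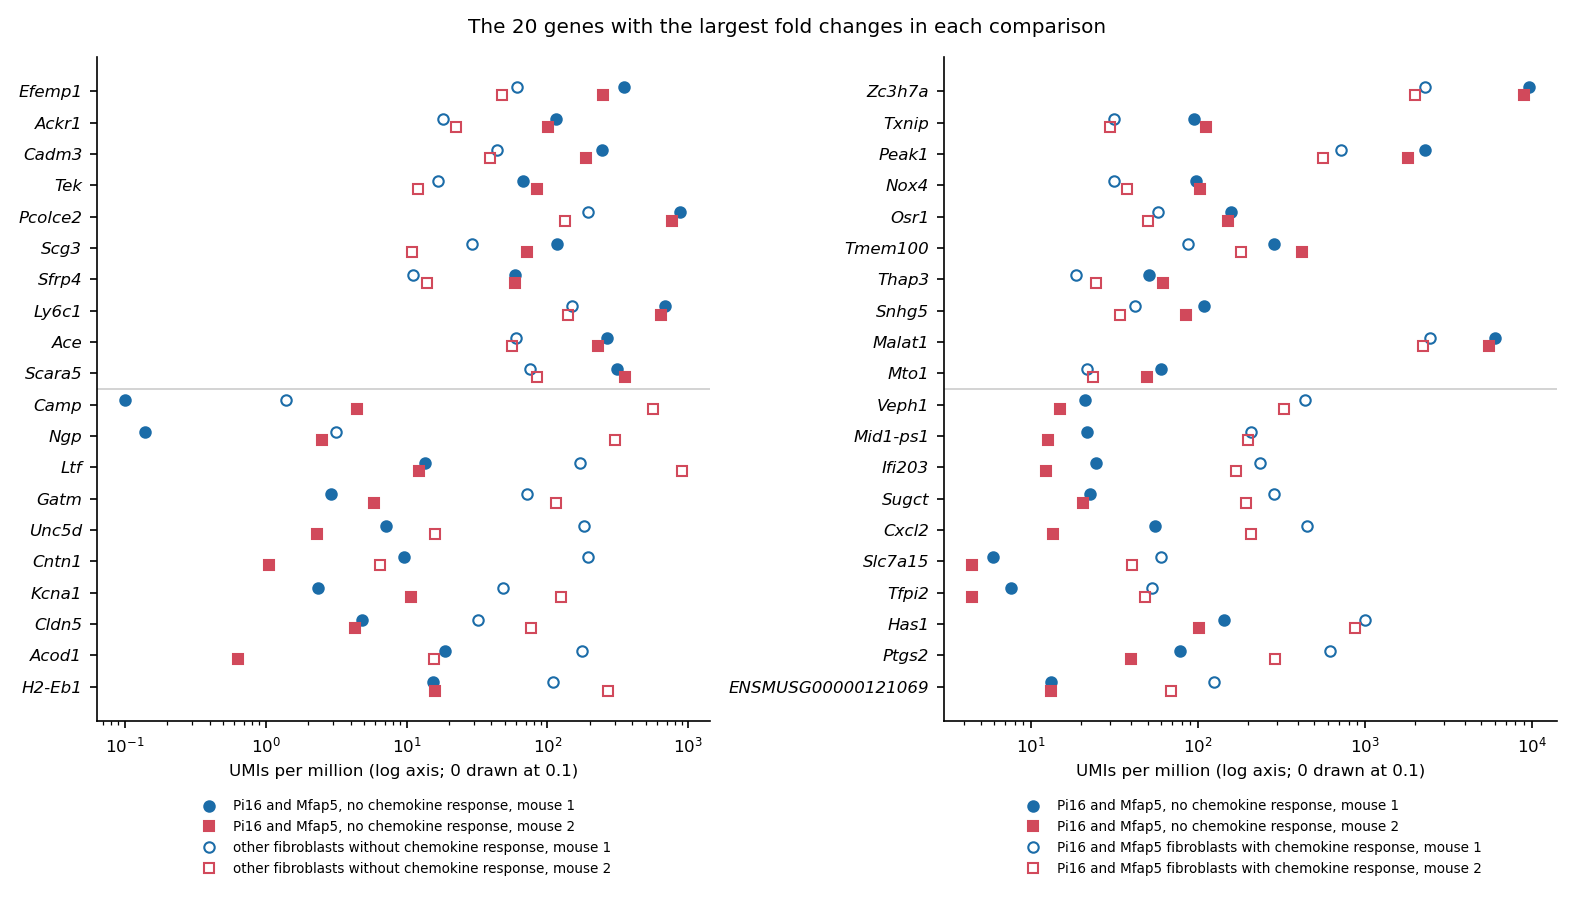
Level (CPM, log axis) of the 10 genes that were most raised and the 10 most lowered in chemokine-low Pi16 fibroblasts against marker-poor fibroblasts (left) and against chemokine-high Pi16 fibroblasts (right). Filled points are chemokine-low Pi16 fibroblasts and open points the group they were set against, 1 per mouse and a level of 0 drawn at 0.1. In each gene both mice have the filled point on the same side of their open point, which the naming of genes required. For Camp, Cntn1 and Acod1 the groups overlap across mice.

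Genes known from Pi16-type fibroblasts of other mouse organs were the list that went furthest with the markers. Of its 25 members, 21 were higher and 1 was lower, with a median log2 fold change of 1.40, against 0.02 for all genes. Ly6a, the stem cell antigen Sca-1, had 1179 and 1079 CPM in chemokine-low Pi16 fibroblasts, against 299 and 439.8 CPM in marker-poor fibroblasts (1.76 ± 0.15). Cd34, a sialomucin of progenitor cells, had 415 and 354 CPM, against 104 and 93.9 CPM (2.08 ± 0.12). Tnxb, which encodes the matrix protein tenascin-X, had 929 and 1049 CPM, against 274 and 329 CPM (1.85 ± 0.11). None of these overlapped between the groups. Dpp4, a peptidase often used to sort such cells, had 40.6 and 35.3 CPM, against 6.61 and 11.4 CPM (2.23 ± 0.26). The Wnt ligand Wnt2 had 21.0 and 16.7 CPM, against 2.09 and 2.65 CPM (3.11 ± 0.35). Limch1, an actomyosin regulator, was the 1 lower member (−1.03 ± 0.21), and none was lower without cells that had 2 markers of another class. The list was chosen with results of these libraries known.

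Collagen genes outside the rule were mostly higher. Of 11 members, 8 were higher and 2 were lower, with a median of 0.74. Without cells that had 2 markers of another class, 7 were higher and 2 lower, with a median of 0.48. With thinned cells, 6 were higher and 3 lower, with a median of 0.30. Col3a1 had 12121 and 11290 CPM in chemokine-low Pi16 fibroblasts, against 3776 and 4064 CPM in marker-poor fibroblasts, a log2 fold change of 1.71 ± 0.10. Col14a1 (1.40 ± 0.15), Col5a3 (1.38 ± 0.14) and Col5a1 (1.25 ± 0.11) followed. The lower ones were Col12a1, a collagen of tendon and dense tissue, with 71.8 and 53.5 CPM, against 153 and 174 CPM (−1.27 ± 0.15), and Col8a1, a short-chain collagen, with 261 and 331 CPM, against 629.7 and 961 CPM (−1.27 ± 0.11). Free RNA held 1811 and 2035 CPM of Col8a1, above both groups. For Col3a1 it held 3645 and 4375 CPM, near the level of marker-poor fibroblasts. The summed fibroblast genes of the rule stood at 46560 and 42430 CPM in chemokine-low Pi16 fibroblasts and 25500 and 26500 CPM in marker-poor ones. In free RNA they stood at 18270 and 20820 CPM. The part of free RNA in the collagen differences was not tested.

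Elastic fibre and microfibril genes gave 12 higher and 2 lower members of 19, with a median of 0.61. Fbn1, the main microfibril protein fibrillin-1, had 854 and 842 CPM, against 264 and 318 CPM (1.68 ± 0.12), and Fbln2, a fibulin, 465 and 451 CPM, against 170.5 and 187 CPM (1.49 ± 0.13). Elastin itself, Eln, had 1024 and 1941 CPM in chemokine-low Pi16 fibroblasts, against 681 and 1134 CPM in marker-poor fibroblasts, and was higher by 0.81 ± 0.10. Here mouse 1 of the chemokine-low Pi16 fibroblasts lay below mouse 2 of the marker-poor ones, so the groups overlapped across mice although each mouse had the higher value in its own chemokine-low cells. Ltbp2 (−1.57 ± 0.17) and Fbn2 (−1.02 ± 0.25), further microfibril genes, were lower. Without cells that had 2 markers of another class the list gave 8 higher and 6 lower, and with thinned cells 7 higher and 5 lower.

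Genes of the basement membrane, the sheet of laminin and collagen IV around vessels and under epithelia, gave 8 higher and 1 lower of 14. Nid1, the linker protein nidogen-1, had 411 and 367 CPM, against 134 and 131 CPM (1.68 ± 0.15); the laminin chains Lamb2 (1.01 ± 0.13) and Lamc1 (0.98 ± 0.15) and the heparan sulphate proteoglycan Hspg2 (0.62 ± 0.11) were higher too. Of 24 matrix proteases and inhibitors, 11 were higher and 2 lower. The membrane protease Mmp14 had 566 and 630 CPM, against 298 and 347 CPM (1.02 ± 0.11), Htra3 438 and 489 CPM, against 189 and 148 CPM (1.58 ± 0.16), and the procollagen enhancer Pcolce 879 and 779 CPM, against 430 and 447 CPM (1.05 ± 0.13). The small metalloprotease gene Mmp23 was higher by 1.6 ± 0.19. With thinned cells, 5 basement membrane genes and 7 protease genes were higher.

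Small leucine-rich proteoglycans, which space collagen fibrils, did not follow the collagens: of 9 tested, 1 was higher and 3 were lower. Podn was higher, at 324 and 214 CPM, against 121 and 89.0 CPM (1.47 ± 0.13). Kera, or keratocan, had 27.8 and 37.9 CPM, against 142 and 181 CPM (−2.17 ± 0.21), and Omd (−0.70 ± 0.15) and Prelp (−0.64 ± 0.15) were lower as well. Kera is also 1 of the 5 tendon markers (Tnmd, Scx, Mkx, Thbs4 and Kera), which summed to 306 and 331 CPM in chemokine-low Pi16 fibroblasts, against 1192 and 1262 CPM in marker-poor fibroblasts. Matricellular proteins went both ways, with 5 higher and 4 lower of 15. Sparc was higher (13244 and 16187 CPM, against 8155 and 11247 CPM; 0.74 ± 0.09) and so was Thbs3 (1.22 ± 0.14). Thbs1, with 52.6 and 33.8 CPM, against 237 and 184 CPM (−2.17 ± 0.18), and the growth factor Ccn2, with 211 and 218 CPM, against 569 and 602 CPM (−1.32 ± 0.16), were lower. With thinned cells 3 matricellular genes were higher and 9 lower.

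**Figure D3:**
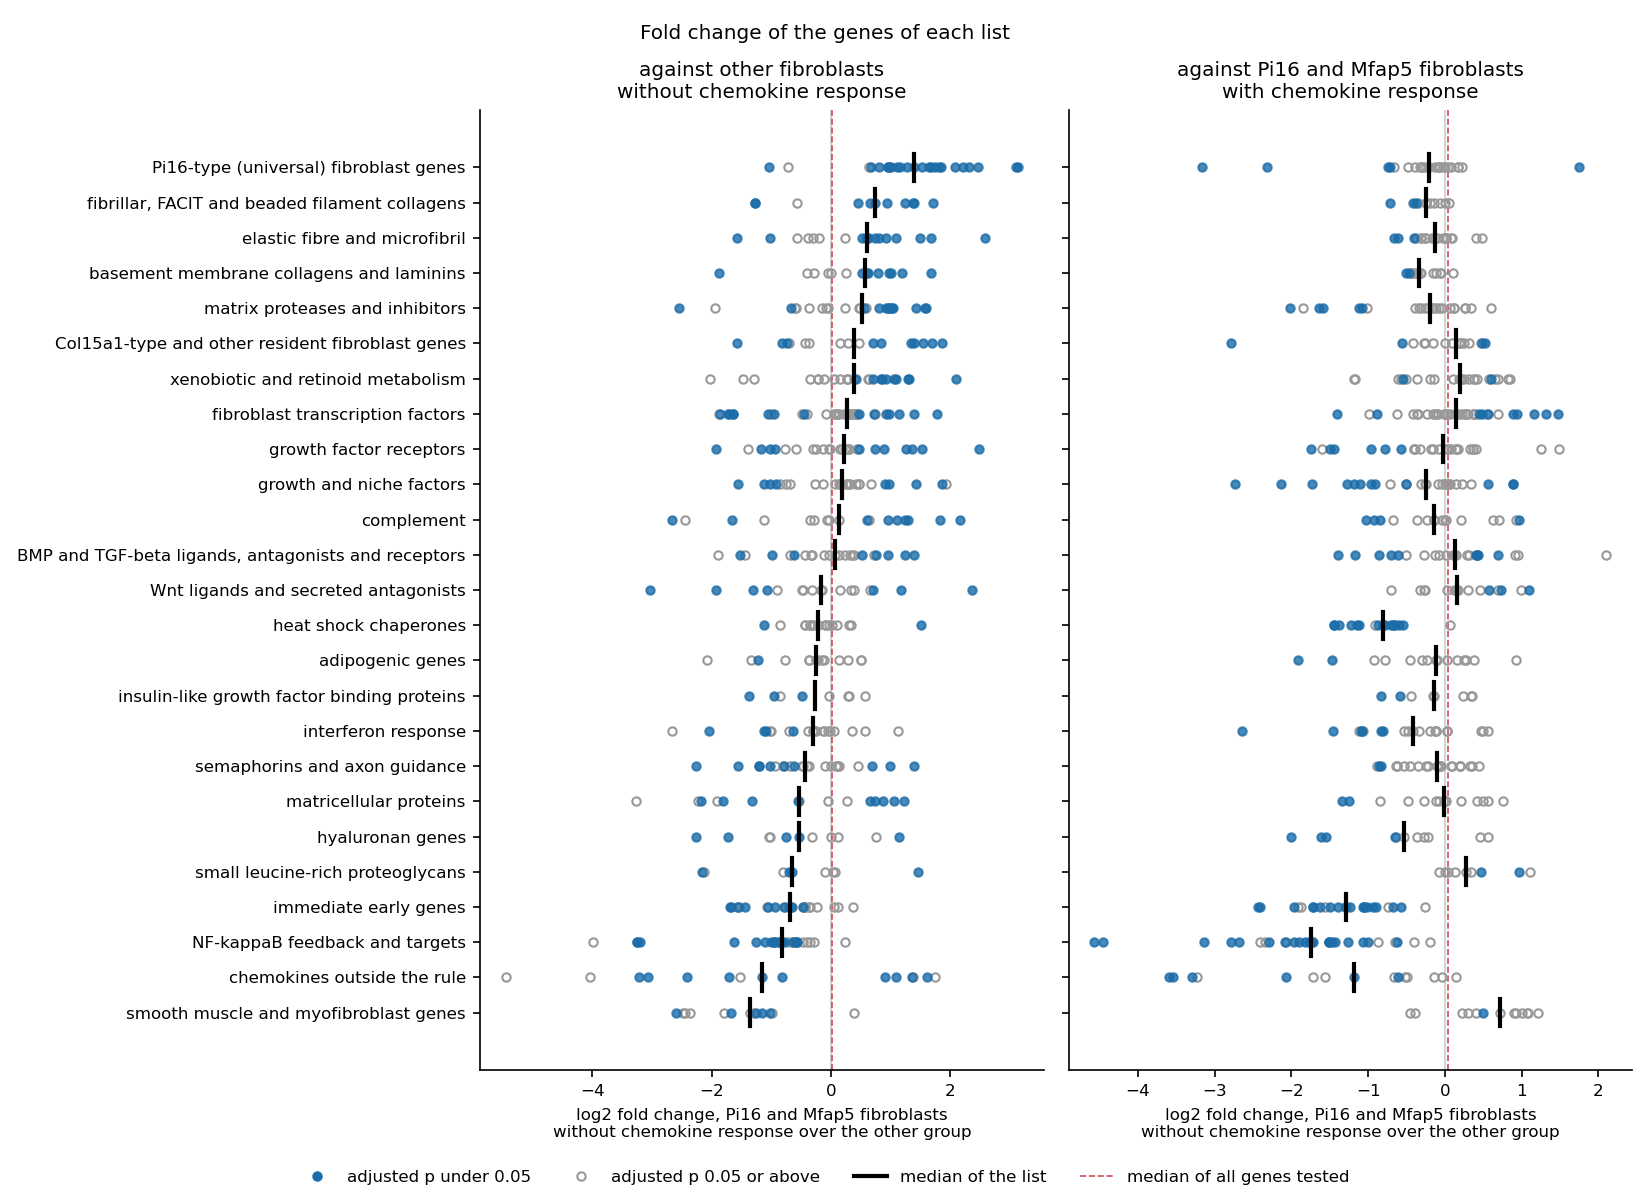
Log2 fold change of every tested gene of 25 lists in chemokine-low Pi16 fibroblasts over marker-poor fibroblasts (left) and over chemokine-high Pi16 fibroblasts (right), with filled points for genes that passed the test, black bars for list medians and a dashed line for the median of all genes tested. The Pi16-type list lies furthest right on the left side, with a median of 1.40, and the NF-kappaB list furthest left on the right side, with a median of −1.74.

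Several secreted immune genes were among those that rose. Of 17 complement genes tested, 7 were higher and 2 lower, with a median of 0.13. Without cells that had 2 markers of another class, 6 were higher and 3 lower, with a median of −0.10. C3, the central complement component, had 372 and 248 CPM in chemokine-low Pi16 fibroblasts, against 123 and 69.7 CPM in marker-poor fibroblasts (1.84 ± 0.14). C7, of the membrane attack complex, had 122 and 60.7 CPM, against 27.8 and 15.9 CPM (2.17 ± 0.16), and the inhibitor Serping1 2478 and 1793 CPM, against 1144 and 832 CPM (1.24 ± 0.11). Chemokines outside the rule split: Cxcl12 (478 and 255 CPM, against 165 and 133 CPM; 1.37 ± 0.15), Ccl11 (1.62 ± 0.14), Ccl8 (1.09 ± 0.22) and Ccl19 (0.91 ± 0.20) were higher, and 6 of 15 were lower, among them Cxcl10 (−1.70 ± 0.36); without cells that had 2 markers of another class, 3 were lower. The alarmin Il33 (109 and 89.7 CPM, against 44.5 and 36.0 CPM; 1.44 ± 0.14) and the lymphatic growth factor Vegfd (1.87 ± 0.21) were higher, and the heparin-binding factors Ptn (−1.56 ± 0.17) and Mdk (−1.03 ± 0.15) were lower, in a list of 27 growth and niche factors with 4 higher and 4 lower, or 1 higher with thinned cells.

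Enzymes of xenobiotic and retinoid metabolism, a function for which nasal tissue is known, gave 10 higher and none lower of 25, with a median of 0.39. Aldh3a1, an aldehyde dehydrogenase, had 287 and 333 CPM, against 135 and 139 CPM (1.30 ± 0.17). Cyp2f2, a cytochrome P450 of airway epithelium, had 61.9 and 90.6 CPM, against 20.9 and 17.4 CPM (2.11 ± 0.23), and Mgst1, a membrane glutathione transferase, 217 and 215 CPM, against 107 and 115 CPM (1.10 ± 0.12). In all 3 the groups did not overlap. The 5 epithelial keratin and adhesion markers (Epcam, Krt5, Krt14, Krt8 and Krt18) were near the floor in chemokine-low Pi16 fibroblasts, at 3.17 and 2.11 CPM in sum. With thinned cells the enzyme list gave 4 higher and 1 lower of 24.

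Among growth factor receptors, 7 of 28 were higher and 4 lower, where 5.59% of all genes were higher and 8.77% lower. Egfr had 329 and 302 CPM, against 140.2 and 102 CPM (1.52 ± 0.15), and the Gas6 receptor Axl 376 and 371 CPM, against 153 and 167 CPM (1.36 ± 0.12). In the BMP and TGF-beta list, 5 of 23 were higher and 3 lower; Fstl1 (1688 and 1569 CPM, against 684 and 668 CPM; 1.40 ± 0.10) and Bmp4 (0.96 ± 0.13) were higher and Bmp2 (−0.99 ± 0.15) was lower. Of 17 genes of the Wnt list tested, 3 were higher and 4 lower, with the antagonist Wif1 at 67.5 and 45.6 CPM, against 215 and 237 CPM (−1.92 ± 0.21). Axon guidance genes gave 3 higher and 7 lower of 24: Slit3 (491 and 414 CPM, against 189 and 185 CPM; 1.40 ± 0.13) and Ntn1 (1.00 ± 0.13) were higher and the receptor Nrp2 (−1.56 ± 0.20) was lower. Of 39 transcription factors, 7 were higher and 8 lower. Osr1, a factor of connective tissue progenitors in development, had 159 and 152 CPM, against 40.7 and 58.3 CPM (1.79 ± 0.17), and Ebf1 764 and 565 CPM, against 330.1 and 325 CPM (1.14 ± 0.12), while Runx1 (78.6 and 53.9 CPM, against 247 and 201 CPM; −1.64 ± 0.13) and Nr2f2 (−1.65 ± 0.17) were lower. Of 16 Col15a1-type and other resident fibroblast genes, 7 were higher, among them the ectonucleotidase Entpd2 (1.87 ± 0.14) and the methyltransferase Inmt (1.55 ± 0.14), and 3 were lower, among them Sparcl1 (−1.57 ± 0.14). With thinned cells 4 receptors, 4 transcription factors and none of the Wnt genes were higher.

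Hyaluronan, chaperone, growth factor binding, adipogenic and interferon genes made up the remaining lists. Their counts are to be read against the 5.59% higher and 8.77% lower of all genes. With all cells, the chaperone and adipogenic counts lay near these shares. Of 11 hyaluronan genes, the proteoglycan gene Vcan was higher (1.14 ± 0.12) and 4 were lower, with the hyaluronan-degrading Cemip at 15.3 and 12.1 CPM, against 87.7 and 55.7 CPM (−2.26 ± 0.26). Of 17 heat shock chaperones, Hspb8 was higher (1.51 ± 0.15) and Cryab lower (−1.12 ± 0.16). Of 8 genes of insulin-like growth factor binding, 3 were lower, with Igfbp2 at 83.0 and 86.6 CPM, against 157 and 341 CPM (−1.36 ± 0.26). Of 15 adipogenic genes, the fatty acid binding protein gene Fabp5 was lower (−1.22 ± 0.24). Without cells that had 2 markers of another class, 4 chaperones and 3 adipogenic genes were lower. Of 21 interferon response genes, 4 were lower, among them Isg15 (−2.04 ± 0.24) and Ifit1 (−1.12 ± 0.30); with thinned cells 1 was lower, and Ifit1 turned to 0.31 and did not pass.

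Both groups had at most 2 chemokine response genes per cell, and stimulus genes outside the rule were lower in chemokine-low Pi16 fibroblasts. The response was not level between the groups. Ccl2 (46.9 and 28.6 CPM, against 200 and 48.1 CPM), Il6 and Cxcl1 were also lower in both mice. Tnfaip6 was higher in both (513 and 428 CPM, against 310 and 226 CPM), and Ccl7 and Ptx3 had no common direction. Marker-poor cells were also shallower. The part of these differences was not tested. Of 30 genes of NF-kappaB feedback and targets, none was higher and 17 were lower, with a median of −0.82. The inhibitor Nfkbiz had 117 and 75.6 CPM, against 299 and 138 CPM (−1.0 ± 0.16), and Tnfaip3, which encodes the feedback enzyme A20, 35.6 and 22.5 CPM, against 97.4 and 42.4 CPM (−1.10 ± 0.20). Of 24 immediate early genes, which are induced within minutes of a stimulus, none was higher and 10 were lower, with a median of −0.69. Nr4a1 had 281 and 228 CPM, against 694 and 475 CPM (−1.06 ± 0.12), and Junb 546 and 380.4 CPM, against 1244 and 724 CPM (−0.94 ± 0.14). For Junb all values of chemokine-low Pi16 fibroblasts lay below those of marker-poor ones. Free RNA stood at 1492 and 1510.3 CPM of Junb, above both groups in both mice. With thinned cells the NF-kappaB list gave 9 lower of 29.

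Markers of several other cell classes were higher in marker-poor fibroblasts. Cells with 2 or more markers of another class were 6.28% and 3.93% of chemokine-low Pi16 fibroblasts, against 20.2% and 24.4% of marker-poor fibroblasts. The neutrophil markers summed to 583 and 22.8 CPM, against 3344 and 2950 CPM, those of Schwann or ensheathing glia to 41.3 and 67.0 CPM, against 579.9 and 1079 CPM, and those of pericytes or smooth muscle to 152 and 129 CPM, against 643 and 739 CPM. Skeletal muscle markers, at 514 and 30.8 CPM, against 359 and 70.8 CPM, were higher in the chemokine-low Pi16 fibroblasts of mouse 1 and lower in those of mouse 2. The 10 genes with the largest fall were Camp, Ngp and Ltf of neutrophil granules, the neural genes Unc5d, Cntn1 and Kcna1, Gatm of creatine synthesis, Cldn5 of endothelial junctions, Acod1 of activated myeloid cells and the MHC class II gene H2-Eb1. Camp had 0 and 4.42 CPM, against 1.39 and 562 CPM, so that its level in marker-poor fibroblasts rested on mouse 2; Cntn1 had 9.66 and 1.05 CPM, against 193 and 6.44 CPM, and rested on mouse 1. Ngp had 0.138 and 2.53 CPM, against 3.13 and 302 CPM; the 0.138 CPM of mouse 1 is 1 UMI. Without cells that had 2 markers of another class, Gatm (−2.16), Unc5d (−4.66) and Cntn1 (−4.51) remained lower. H2-Eb1 (−4.01, adjusted p = 0.0860), Kcna1 (−2.03, adjusted p = 0.0512), Cldn5 (−1.6), Acod1 (−1.45) and Camp (−0.72) kept a negative fold change but did not pass, Ngp was not tested, and Ltf turned to 1.82 higher. Smooth muscle and myofibroblast genes gave none higher and 5 lower of 13, with a median of −1.35; Itga8, an integrin chain, had 9.66 and 11 CPM, against 33.7 and 38.6 CPM (−1.67 ± 0.27), and the calponin gene Cnn2 was lower (−1.16 ± 0.18). The part of other cells in these genes was not tested beyond leaving out the marked cells, after which 8 of the 11 smooth muscle genes still tested were lower.

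The next comparison set chemokine-low against chemokine-high Pi16 fibroblasts, which share the 4 markers and differ in the rule only by the number of chemokine response genes. Of 16356 genes, 744 were higher (4.55%) and 1525 were lower (9.32%) in chemokine-low Pi16 fibroblasts, 2268 of the 2269 in the same direction in both mice, with a median of 0.04 over all genes. Both comparisons use the same chemokine-low cells. TMM places fold changes here 0.20 below the log2 ratio of the CPM values. The number of higher genes depended on the settings: it was 422 in cells of at least 2000 UMIs, 394 with at most 1 chemokine response gene allowed, 245 with DESeq2, 45 without the mouse as a block and 1655 with only these groups in the fit. Without the block 387 genes were lower, and with only these groups 2740.

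NF-kappaB feedback and target genes were lower in chemokine-low Pi16 fibroblasts: 22 of 30 were lower and none was higher, with a median log2 fold change of −1.74. NF-kappaB is a transcription factor family that drives chemokine genes and its own inhibitors. Ptgs2, the inducible cyclooxygenase of prostaglandin synthesis, had 78.3 and 39.6 CPM in chemokine-low Pi16 fibroblasts, against 622 and 291 CPM in chemokine-high ones, a log2 fold change of −3.14 ± 0.13 (adjusted p = 1.40e-08). The subunit gene Nfkb1 had 359 and 252 CPM, against 1679 and 1607 CPM (−2.68 ± 0.30). The inhibitor Nfkbia had 445 and 359.7 CPM, against 1306 and 1154 CPM (−1.82 ± 0.17), Tnfaip3 35.6 and 22.5 CPM, against 149.8 and 97.7 CPM (−2.30 ± 0.19), and the apoptosis inhibitor Birc3 69.3 and 58.7 CPM, against 211 and 221 CPM (−1.97 ± 0.16). The groups did not overlap in any of these 5 genes, which describes named genes only. Free RNA held 1188 and 680.4 CPM of Nfkb1, above the chemokine-low Pi16 fibroblasts of both mice. Genes of this list are known to be induced by the same signals as several of the 6 chemokine response genes of the rule.

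The fall extended to other stimulus genes. Of 24 immediate early genes, 18 were lower and none higher, with a median of −1.29. Zfp36, which encodes an mRNA-destabilizing protein, had 300.3 and 261 CPM, against 928 and 963 CPM (−1.97 ± 0.15), and Junb 546 and 380.4 CPM, against 1358 and 1233 CPM (−1.72 ± 0.14). The growth regulator Myc had 89.6 and 50.5 CPM, against 358 and 274 CPM (−2.43 ± 0.28). Fos, a subunit of the AP-1 transcription factor, had 1269 and 849.8 CPM, against 1535 and 1335 CPM (−0.67 ± 0.14). Of 17 heat shock chaperones, 14 were lower and none higher, with a median of −0.80; the cytosolic chaperone Hspa8 had 507 and 451 CPM, against 929.7 and 998 CPM (−1.22 ± 0.14), and Hsp90aa1 221 and 171 CPM, against 382 and 365 CPM (−1.15 ± 0.14). The endoplasmic reticulum chaperone Hspa5 (−1.12 ± 0.15) and the co-chaperone Dnajb4 (−1.44 ± 0.14) were lower too. Median mitochondrial shares were 4.89% and 5.68% in chemokine-low Pi16 fibroblasts, against 4.41% and 5.21% in chemokine-high ones.

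Chemokines outside the rule were lower where they differed, 6 of 15, with none higher. Cxcl10, an interferon-inducible chemokine, had 3.04 and 5.37 CPM, against 40.7 and 34.7 CPM (−3.30 ± 0.32), and Cxcl2, a neutrophil attractant, 55.2 and 13.6 CPM, against 450 and 208 CPM (−3.59 ± 0.47). Ccl11 (−0.61 ± 0.13) and Ccl8 (−1.18 ± 0.19), which rose against marker-poor fibroblasts, were lower here. Cxcl12, higher against marker-poor fibroblasts, stood at 478 and 255 CPM, against 369 and 203 CPM, and did not pass here (0.15 ± 0.14). Of 21 interferon response genes, 6 were lower and none higher, with the guanylate-binding protein gene Gbp2 at 21.5 and 19.0 CPM, against 104 and 114 CPM (−2.64 ± 0.19). Complement C3 (372 and 248 CPM, against 575 and 430.5 CPM; −0.92 ± 0.13) and C4b (−0.85 ± 0.14) were lower, while C7 (122 and 60.7 CPM, against 56.4 and 25.5 CPM; 0.97 ± 0.14) was higher.

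Genes of hyaluronan synthesis and binding were part of the difference. Hyaluronan is a large sugar polymer of the matrix and builds up in inflamed tissue. Has1, a hyaluronan synthase, had 143 and 102 CPM in chemokine-low Pi16 fibroblasts, against 1004 and 873 CPM in chemokine-high ones (−3.16 ± 0.24). Ugdh, which makes a sugar precursor of hyaluronan, had 447 and 379 CPM, against 1733 and 1769 CPM (−2.31 ± 0.40), and the synthase Has2 63.1 and 47.1 CPM, against 145 and 129 CPM (−1.54 ± 0.29). The receptor Cd44 had 209 and 107 CPM, against 627 and 428 CPM (−2.00 ± 0.14). No value of 1 group fell within the range of the other for any of these 4 genes. In the list of 11 hyaluronan genes, which leaves out Has1 and Ugdh, 4 were lower and none higher.

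Receptors and factors that act between cells also differed. Of 28 growth factor receptors, 6 were lower and none higher, among them the oncostatin M receptor Osmr (80.6 and 67.2 CPM, against 232 and 199 CPM; −1.75 ± 0.14) and the interleukin-1 receptor Il1r1 (82.1 and 61.6 CPM, against 221 and 128 CPM; −1.45 ± 0.13). The fibroblast growth factor receptor Fgfr1 was lower as well (−0.97 ± 0.13). Of 27 growth and niche factors, 9 were lower, among them Kitl, the stem cell factor (57.0 and 32.0 CPM, against 104 and 68.7 CPM; −1.19 ± 0.16), and Vegfa (−0.91 ± 0.14), and 3 were higher. The higher ones were Fgf10 (25.5 and 21.8 CPM, against 12.0 and 10.1 CPM; 0.89 ± 0.25), Angpt1, a ligand of the Tek receptor (51.6 and 49.6 CPM, against 23.8 and 23.7 CPM; 0.89 ± 0.20), and Angptl1 (0.56 ± 0.13). In the Wnt list, Rspo1 (1.10 ± 0.23), Dkk2 (0.74 ± 0.15) and Wnt5a (0.58 ± 0.15) were higher and none of 17 was lower. In the BMP and TGF-beta list of 23, 4 were higher and 5 lower; Bmp2 was lower (−1.39 ± 0.15) and its relative Bmp4 higher (0.43 ± 0.13).

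Transcription factors of connective tissue identity had 8 of 39 members higher and 2 lower. Osr1 had 159 and 152 CPM in chemokine-low Pi16 fibroblasts, against 57.9 and 50.3 CPM in chemokine-high ones (1.32 ± 0.16). Alx1, a homeobox factor of facial mesenchyme in development, had 89.9 and 97.8 CPM, against 40.1 and 44.9 CPM (0.94 ± 0.15), and its relative Alx4 (14.9 and 16.5 CPM, against 8.06 and 6.49 CPM; 0.89 ± 0.27) was higher too. Pax3 (143 and 128 CPM, against 101 and 70.2 CPM; 0.48 ± 0.14) and Msx1 (155 and 152 CPM, against 101 and 93.7 CPM; 0.45 ± 0.13), both known from the neural crest, were higher, and so were Meox2 (1.15 ± 0.34) and Ebf2 (0.56 ± 0.17). Runx1 (78.6 and 53.9 CPM, against 173 and 129 CPM; −1.40 ± 0.13) and Zeb1 (−0.89 ± 0.14) were lower. The basic leucine zipper factors Cebpb (−1.92 ± 0.28) and Cebpd (−1.47 ± 0.20), counted in the adipogenic list, were lower as well.

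The single genes with the largest rise against chemokine-high Pi16 fibroblasts were led by Zc3h7a. Zc3h7a, a zinc finger gene linked to microRNA processing, had 9660 and 9008 CPM in chemokine-low Pi16 fibroblasts, against 2310.5 and 1989 CPM in chemokine-high ones, and was higher by 1.91 ± 0.12 (adjusted p = 3.72e-07). The nuclear RNA Malat1 had 6002 and 5562 CPM, against 2465 and 2248 CPM (1.09 ± 0.19). The pseudokinase gene Peak1 had 2299 and 1809 CPM, against 719 and 559 CPM (1.48 ± 0.11). In all 3 the groups stood apart in both mice. Txnip, a thioredoxin inhibitor that is regulated by glucose (1.54 ± 0.17), the oxidase gene Nox4 (1.34 ± 0.14), the BMP-induced gene Tmem100 (1.24 ± 0.15), Snhg5 (1.14 ± 0.13), Thap3 (1.19 ± 0.25) and Mto1 (1.08 ± 0.16) completed the 10. The largest falls were in Veph1 (21.0 and 14.8 CPM, against 438 and 329 CPM; −4.63 ± 0.16), the pseudogene Mid1-ps1 (−3.81 ± 0.21), the interferon-inducible Ifi203 (−3.71 ± 0.38) and Sugct, a mitochondrial transferase (22.6 and 20.6 CPM, against 285 and 195 CPM; −3.64 ± 0.19). Slc7a15 (−3.47 ± 0.20), the protease inhibitor Tfpi2 (−3.31 ± 0.27) and 1 gene without a symbol, ENSMUSG00000121069 (−3.00 ± 0.20), were next to Cxcl2, Has1 and Ptgs2. Pseudogenes such as Mid1-ps1 and members of gene families such as Ifi203 may share reads with their copies, so their values are uncertain.

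Where matrix genes passed between the groups of Pi16 fibroblasts, most were lower, in shares to be read against the 4.55% higher and 9.32% lower of all genes. Of 11 collagens, 3 were lower and none higher, with the largest fold change in Col12a1 (−0.72 ± 0.15), and Col3a1 did not pass (12121 and 11290 CPM, against 10312 and 10909 CPM; −0.06 ± 0.09). Of 19 elastic fibre genes, 3 were lower, Lox (−0.67 ± 0.14), Ltbp1 (−0.61 ± 0.13) and Loxl2 (−0.41 ± 0.12), against 6 with thinned cells, and of 14 basement membrane genes 2 were, Lamb2 (−0.47 ± 0.12) and Hspg2 (−0.50 ± 0.11). Without cells that had 2 markers of another class, 7 basement membrane genes and 10 Pi16-type genes were lower. The Pi16-type list gave 1 higher and 4 lower of 25, with a median of −0.21 that is close to the shift of the TMM scale. Dact2 was the higher one, at 5.52 and 10.0 CPM, against 1.69 and 2.24 CPM, and besides Has1 and Ugdh the receptor Ackr3 (−0.74 ± 0.13) and the glycoprotein Emilin2 (−0.72 ± 0.15) were lower. Dpp4 (40.6 and 35.3 CPM, against 28.1 and 38 CPM; 0.01 ± 0.21) and Tnxb (−0.30 ± 0.11) did not pass, which does not show that they were alike. Of 24 proteases and inhibitors, 5 were lower, among them Adamts1 (152 and 119 CPM, against 566 and 397 CPM; −2.02 ± 0.14). Small leucine-rich proteoglycans had 2 of 9 higher, Aspn (0.48 ± 0.14) and Kera (0.97 ± 0.23). With thinned cells, 10 protease genes were lower.

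The remaining lists held single genes that passed, in counts to be read against the 4.55% higher and 9.32% lower of all genes. Fgl2, a secreted immune regulator, was lower, at 71.5 and 64.6 CPM, against 504 and 332 CPM (−2.79 ± 0.15), as 1 of 2 lower and 2 higher genes of 16 in the Col15a1-type list. Of 15 matricellular genes, Thbs1 (−1.34 ± 0.18) and Ccn1 (−1.25 ± 0.15) were lower and none was higher, against 2 higher with thinned cells. Of 25 xenobiotic and retinoid genes, Aldh3a1 was higher (0.60 ± 0.17) and the peroxidase gene Gpx3 lower (−0.55 ± 0.12). Fap, a surface protease of activated fibroblasts, was the 1 gene of the smooth muscle list to be higher, of 13 (0.50 ± 0.14). Of 24 axon guidance genes, Sema4a (−0.86 ± 0.19) and Plxna2 (−0.83 ± 0.22) were lower, and of 8 genes of insulin-like growth factor binding, Igf1r (−0.59 ± 0.14) and Pappa2 (−0.83 ± 0.17).

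The stimulus genes varied among the chemokine-low Pi16 fibroblasts themselves. With 0, 1 and 2 chemokine response genes detected, the summed NF-kappaB list stood at 1531, 1976 and 3269 CPM in mouse 1 and 1202, 1550 and 2921 CPM in mouse 2. The immediate early list stood at 4311, 6960 and 10560 CPM and 3188, 4894 and 9490 CPM. The heat shock list stood at 2133, 2796 and 3491 CPM and 1920, 2192 and 3157 CPM. Each step up in the number of chemokine response genes thus came with a higher level of all 3 lists in both mice, within the cells the rule had kept. Just outside the rule, with 3 such genes, the NF-kappaB list stood at 5135 and 5333 CPM. The immediate early list was highest with 4 such genes, at 15830 and 12830 CPM, and lower with all 6, at 10910 and 11170 CPM. Median depth was 2600, 3122 and 3131.5 UMIs in mouse 1 with 0, 1 and 2 chemokine response genes, and 3321, 4159.5 and 3713 UMIs in mouse 2. The part of depth in these steps was not tested. The collagen list stood at 17700, 16930 and 16450 CPM and 15700, 16760 and 15970 CPM over the same steps and had no common direction in the mice.

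**Figure D4:**
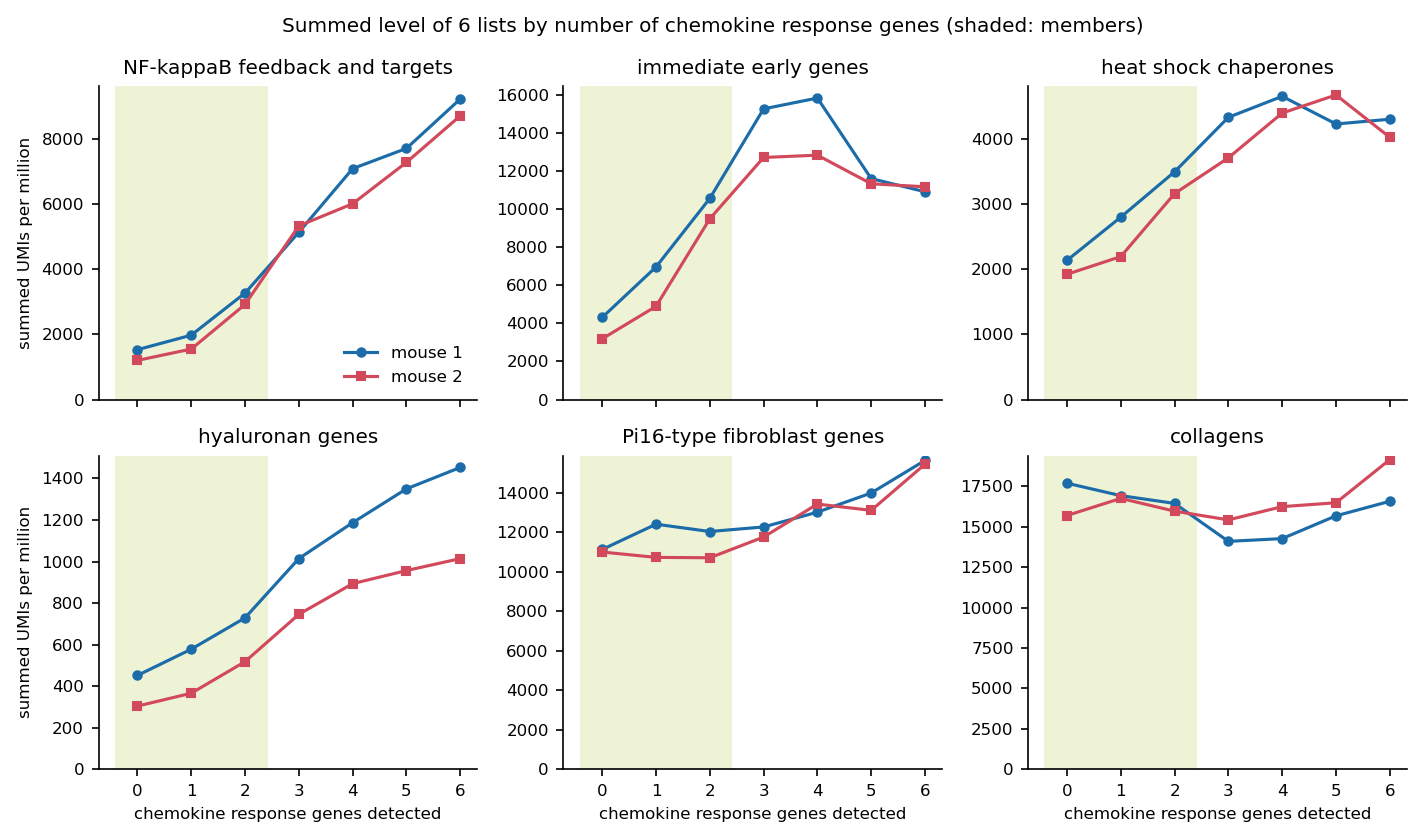
Summed level (CPM) of 6 gene lists in Pi16 fibroblasts by the number of chemokine response genes detected in a cell, with 1 line per mouse; the shaded range of 0 to 2 genes holds the chemokine-low Pi16 fibroblasts. The NF-kappaB list climbs over the whole range in both mice, from 1531 to 9227 CPM in mouse 1, while the Pi16-type list, which holds Has1 and Ugdh, stays between 10700 and 15630 CPM.

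Several lists, but not all lists of matrix genes, were graded by the number of markers in a cell. In chemokine-low Pi16 fibroblasts with 2, 3 and 4 markers, the Pi16-type list, which holds none of the 4, stood at 8500, 10980 and 15320 CPM in mouse 1 and 7591, 10490 and 12550 CPM in mouse 2. The collagen list stood at 14320, 17420 and 18540 CPM and 13210, 15950 and 17830 CPM, and the elastic fibre list at 5810, 5863 and 7023 CPM and 6576, 7481 and 8281 CPM. These 3 lists were higher at each further marker in both mice. The small leucine-rich proteoglycans ran the other way, at 3085, 2695 and 2140 CPM and 3258, 2609 and 2200 CPM, and so did the smooth muscle list, at 1010, 482 and 324 CPM and 948, 305 and 239.5 CPM. Matricellular proteins, at 14500, 15740 and 15240 CPM and 18110, 17960 and 18640 CPM, and matrix proteases and inhibitors, at 6755, 7021 and 7021 CPM and 6992, 7184 and 7110 CPM, had no such gradient. Immediate early genes stood at 9306, 7890 and 5311 CPM and 7406, 5301 and 4502 CPM. Median depth was 2345, 2772 and 3922 UMIs in mouse 1 and 2856, 3392 and 4308.5 UMIs in mouse 2, so cells with more markers were also deeper. The part of depth in these gradients was not tested.

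**Figure D5:**
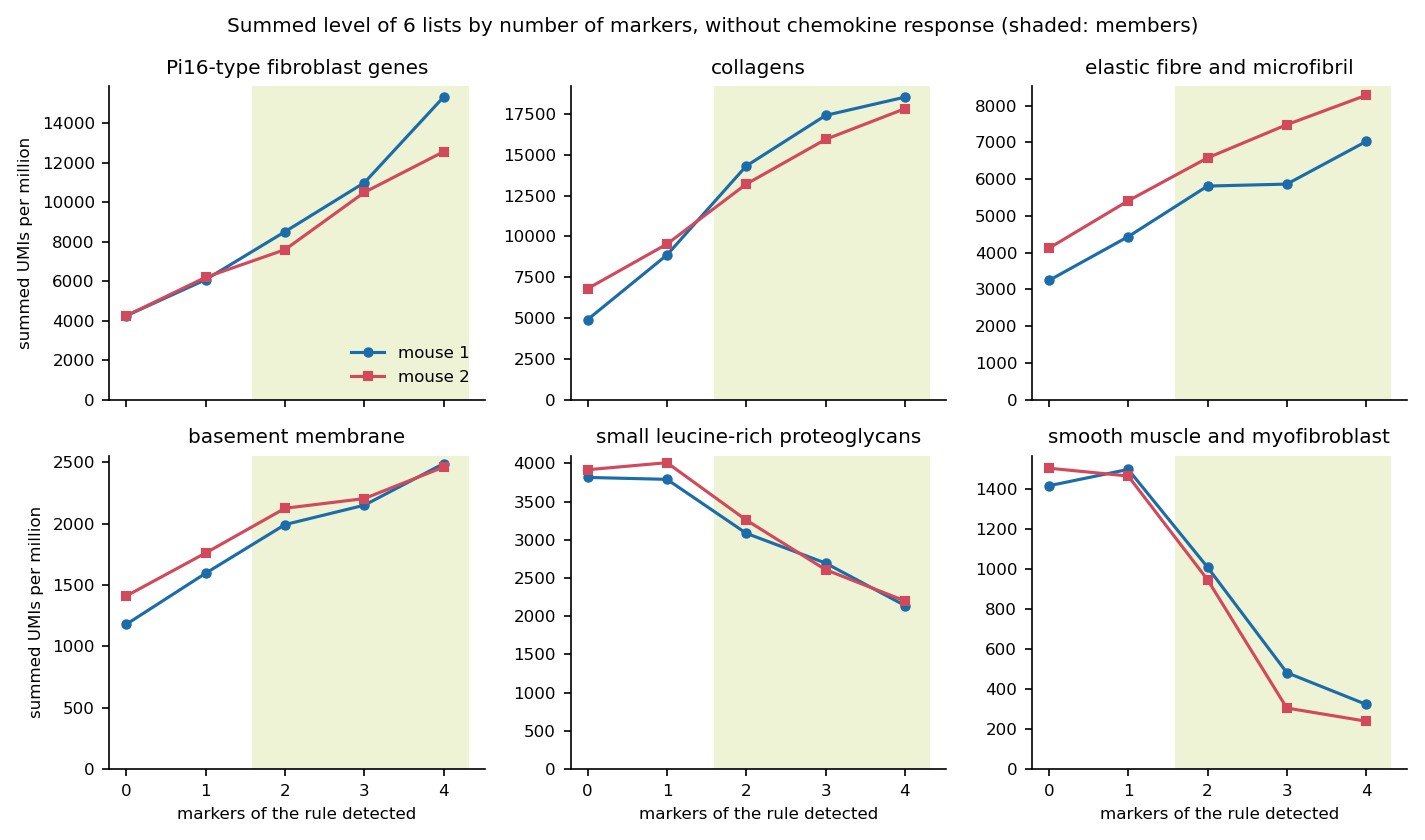
Summed level (CPM) of 6 gene lists in fibroblasts with at most 2 chemokine response genes by the number of the 4 markers detected in a cell, with 1 line per mouse; the shaded range of 2 to 4 markers holds the chemokine-low Pi16 fibroblasts and 0 and 1 the marker-poor ones. The Pi16-type list climbs from 4246 CPM to 15320 CPM in mouse 1 and the smooth muscle list is lowest with 4 markers, at 324 and 239.5 CPM.

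Variation from cell to cell within the chemokine-low Pi16 fibroblasts was measured by the ratio of variance to mean of counts thinned to 1000 UMIs, taking the mouse with the lower ratio. Of the 10 genes with the highest ratio, 5 were broadly detected. Rn18s-rs5, a locus with ribosomal RNA sequence, led with ratios of 42.4 and 47.9, followed by Zc3h7a (17 and 13.8), Col1a1 (18.5 and 12.2), Malat1 (9.18 and 13.6) and the metallothionein gene Mt1 (8.50 and 7.41). Zc3h7a was detected in 83.2% and 88.4% of the cells, with a median count of 4 and a 90th percentile of 25 and 24.9 counts. Its counts went up and down with Malat1 (Pearson r = 0.426 over 2054 cells and 0.253 over 2212 cells, on log counts). The same held for Zc3h7a with Rn18s-rs5 (r = 0.326 and 0.260), and Zc3h7a went against Mt1 (r = −0.233 and −0.218). The cells share library, free RNA and total count, so these r values are a description only. The other 5 were carried by few cells. Of these, Psca, Coch, Cd74 and Ltf were each detected in at most 2.14% of the cells, and the 5 cells with most counts held 46.6% or more of the counts of each. Psca encodes a surface antigen of epithelia and Cd74 the MHC class II invariant chain.

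RNA of other cell classes was measured in the chemokine-low Pi16 fibroblasts. Of 13 marker lists for such classes besides cartilage and tendon, none summed to more than 583 CPM in either mouse. Neutrophil markers summed to 583 and 22.8 CPM, and the 5 cells with most of them held 81.8% of these UMIs in mouse 1 and 8.33% in mouse 2. Skeletal muscle markers summed to 514 and 30.8 CPM, with 85.9% and 5.82% of the UMIs in 5 cells. Both lists were thus high in mouse 1 through a few cells, and low and spread out in mouse 2. For endothelial markers the 5 top cells held 9.22% and 14.8% of the UMIs, and for macrophage markers 15.9% and 13.8%. Leaving out the 129 and 87 cells with 2 or more markers of another class removed 6.28% and 3.93% of the chemokine-low Pi16 fibroblasts. Macrophage markers stood at 23.5 and 19.9 CPM, T or NK markers at 2.35 and 2.00 CPM with 1 of 5 at 0 UMIs in each mouse, and B cell markers at 3.04 and 11.8 CPM. Cartilage markers (Col2a1, Matn1, Col9a1, Sox9 and Col11a2) stood at 287 and 189 CPM, below the 5666 and 4975 CPM of free RNA, and tendon markers at 306 and 331 CPM, near the 246 and 361 CPM of free RNA.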

How the data were processed

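Single-cell libraries of 2 mice, 1 each, were deposited as gene by barcode matrices of counts. STAR, Cell Ranger 7.0.0 and the build GRCm39 are named per the submitters' processing notes. For the annotation, a release was not stated there. The matrices list 575908 and 610731 barcodes with 95844802 and 86049057 UMIs in all. Barcodes with at least 1000 UMIs, 300 genes and at most 15% mitochondrial UMIs were kept as cells. No doublet caller was run; as an alternative, cells with 2 or more of the 5 markers of a class other than fibroblast, cartilage or tendon were left out.

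The members and the gene lists were chosen with earlier results of these data known. Counts were summed over 4 groups of fibroblasts in each mouse, and the 8 sums were fitted with edgeR 4.0.16 (quasi-likelihood test, TMM normalization, filterByExpr, limma 3.58.1, R 4.3.3), with the mouse as a replicate block because the groups come from the same animals, which leaves 3 residual degrees of freedom. P-values were adjusted by Benjamini-Hochberg over the 16356 genes outside the 17 genes of the rule and were called at 0.05. They measure only how far differences between groups varied between 2 libraries, since the block takes out the mean difference between the mice. Standard errors follow ± signs. The procedure was tested on simulated data. DESeq2 1.42.0 served as an alternative. Binomial intervals are exact (Clopper-Pearson) and, like the floor of 3 UMIs, cover counting error only.

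Genes were named by rule. Called genes of at least 50 CPM in 1 group and the same direction in both mice gave the 10 largest fold changes each way. Up to 4 called members of each list by adjusted p and the 10 most variable genes were added. Col12a1, Col14a1, Cxcl10, Dpp4, Eln, Fbn2, Limch1, Ltbp2, Ly6a and Wnt2 against marker-poor fibroblasts, and Alx4, Angpt1, Angptl1, Bmp4, Col3a1, Cxcl12, Dpp4, Ebf2, Fgf10, Fos, Meox2, Msx1, Myc, Nfkb1, Nfkbia, Pax3, Tnxb and Ugdh against chemokine-high Pi16 fibroblasts, were named after their values were seen. Some genes that the rule names are not reported here.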

Additional observations from a re-analysis of the deposited data

How the results depend on the processing

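Of 78 alternative values of the main results, 67 kept their direction and stayed near the main value or on its side of the threshold. The other 11 did not, and the cause was not tested. The values without a mouse, for the share of cells and the held-out markers, count among the 67 by construction and are no check. Thinning cells to 1000 UMIs gave 442 higher and 715 lower genes against marker-poor fibroblasts, where all counts gave 914 and 1434. Leaving out the replicate block gave 300 and 534. Against chemokine-high Pi16 fibroblasts, where the main counts were 744 and 1525, leaving out the block gave 45 higher and 387 lower genes, and fitting those groups alone gave 1655 and 2740. Higher genes there numbered 422 in cells of at least 2000 UMIs, 394 with at most 1 chemokine response gene and 245 with DESeq2. Ltf turned to 1.82 against marker-poor fibroblasts without cells that had 2 markers of another class, and Ifit1 to 0.31 with thinned cells. No named gene turned direction when either mouse was left out, which is no check either. For the genes with the largest fold changes, the naming required the same direction in both mice. Nearly all called genes had it already, 2348 of 2348 against marker-poor and 2268 of 2269 against chemokine-high Pi16 fibroblasts. Without a mouse the share of cells was 14.5% or 22.9%, and the held-out fold changes were 2.62 to 3.09 for Pi16, 1.87 to 1.89 for Mfap5, 1.43 for Clec3b and 2.10 to 2.12 for Cd248. Leaving out barcodes found in both mice was chosen after seeing the data and kept 105 of 109 and 95 of 97 named genes past the threshold in the same direction. With 2 mice, 1 library each, small changes of low genes are beyond what these counts can show.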
